A study of Mus musculus with 6 samples.

Results

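The eIF4A helicases of the mouse and the Eif4a3-like copies of one of them were followed in embryonic stem (ES) cells that had been separated by 2C::tomato fluorescence. All probesets whose annotation lists a symbol starting with Eif4a3l were taken, with those of the paralogues Eif4a1, Eif4a2 and Eif4a3, which gave 8 of the 35556 probesets on the array. Of the 8, 3 list Eif4a3l1, and 2 of these list Eif4a3 as well, so that 1 probeset names Eif4a3l1 alone. Eif4a1 has 3 probesets, and Eif4a2 and Eif4a3 have 1 each of their own. No probeset lists Eif4a3l2. RefSeq (GRCm38.p6) annotates Eif4a3l1 as a protein-coding gene on chromosome 6 and Eif4a3l2 as a pseudogene. The group was chosen by the high log2 difference of Eif4a3l1 between the sorted cells, with the ubiquitous paralogues set beside it, so the members' own differences between positive and negative cells are given as a description without a test.

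There were 6 samples, numbered 1 to 3 among the reporter-positive and 1 to 3 among the reporter-negative cells. All were titled wild type (WT) and were ES cells passaged on gelatin in ES-KOSR medium. The protocol text shared by the samples names vehicle or 4-hydroxytamoxifen (4OHT), which deletes Kdm1a, before sorting, and does not say which of the treatments these samples had. In published work with this reporter, regulatory sequence of an endogenous retrovirus active in the two-cell embryo drives the tomato protein, so the sort selects on that promoter and not on a cell surface marker. Total RNA was hybridised to an Affymetrix whole-transcript array, and the values are log2 expression after RMA by the authors.

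The eIF4A proteins are the founding members of the DEAD-box family of RNA helicases, which use ATP to open short stretches of RNA. eIF4A1 and eIF4A2 work in the cytoplasm as part of eIF4F, the complex on the cap of an mRNA that recruits the small ribosomal subunit. eIF4A3 works mostly in the nucleus as the RNA-gripping core of the exon junction complex, which marks sites where introns were removed and feeds into nonsense-mediated decay. A gene copy without introns, made by reverse transcription of the parent's mRNA, keeps much of the parent's coding sequence and takes its promoter from the place where it lands.

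The arrays were alike over all probesets, with correlations between 0.961 and 0.992 and medians between 6.95 and 7.04. In a limma comparison of the groups, 0 of 35556 probesets (0.0%) passed an adjusted p of 0.05 (smallest 0.875), and 1946 had an unadjusted p below 0.05. Markers of ES cells were present in every array, with a mean log2 level over 13 genes between 11.88 and 12.16 in negative and between 11.80 and 12.09 in positive arrays. Two-cell-stage markers had 13 of 13 measured members higher in positive cells. Of the 27 on that list, 10 had only probesets of several symbols and 4 had no listed probeset. The list was chosen with earlier results of these data known, so this count is a description and not a test. The mean log2 level of the 13 was 5.89 to 6.05 in negative arrays and 8.36, 11.25 and 7.26 in positive arrays 1, 2 and 3. Fibroblast feeder markers were lower in 8 of 12 members (mean level 7.54 to 8.09 in negative and 7.14 to 8.04 in positive arrays), primitive endoderm markers in 9 of 10 (7.63 to 7.91 and 7.30 to 7.60) and trophectoderm markers in 5 of 10 (8.72 to 9.25 and 8.66 to 9.37). In same-numbered pairs 1, 2 and 3 the median log2 difference of the primitive endoderm markers was -0.52, 0.017 and -0.45. It was -0.29, -0.093 and -0.35 for the feeder and 0.041, 0.22 and -0.099 for the trophectoderm markers. None of these markers passed the test, and their part in the results below was not tested.

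Eif4a3l1, read by the probeset that names it alone (10542369), was 8.75-fold higher in positive than in negative cells. Its log2 level was 6.24, 6.06 and 6.25 in negative arrays 1, 2 and 3, and 8.38, 12.23 and 7.32 in positive arrays 1, 2 and 3. Each positive array lay above each negative array, with a gap of 1.07 between the lowest positive and the highest negative value. The group levels were 6.18 ± 0.11 (SD, n = 3) in negative and 9.31 ± 2.58 (SD, n = 3) in positive arrays, a log2 difference of 3.13 (SE 1.18).

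The size of that difference varied widely between the positive arrays. By same-numbered pairs Eif4a3l1 was 4.40-fold higher in pair 1, 72.2-fold in pair 2 and 2.11-fold in pair 3. Positive array 2 stood 3.85 above positive array 1, and array 1 stood 1.06 above array 3, while the 3 negative arrays spanned 0.19. Without positive array 2 the log2 difference was 1.67, and without positive array 3 it was 4.12. The order of the positive arrays, 2 then 1 then 3, was also that of the mean two-cell-stage marker level. In these bulk samples, more cells carrying the transcript and more transcript per cell cannot be told apart.

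Of the 8 member probesets, 1 was at least 2-fold higher in positive cells, that of Eif4a3l1 alone. Over all probesets 1.14% were at least 2-fold higher. The groups did not overlap for 4 of the 8, all higher in positive cells (Eif4a3l1 alone, Eif4a3 and 2 of the 3 Eif4a1 probesets), against 5.46% of all probesets higher without overlap. Since the members were proposed from this contrast, nothing is read from these shares.

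**Figure D1:**
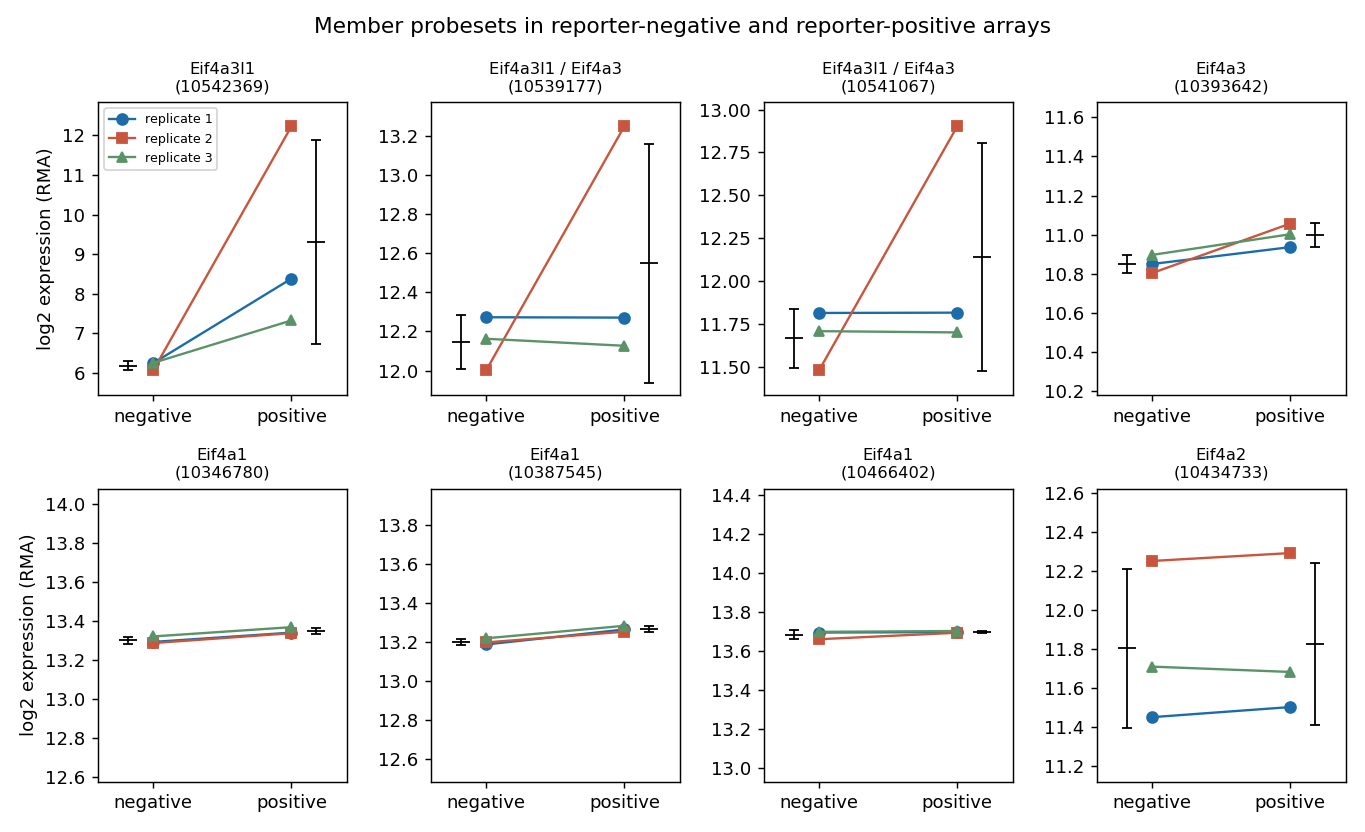
Log2 expression of the 8 member probesets in negative and positive arrays, with same-numbered arrays joined by a line and the mean ± SD of each group in black. The vertical scales differ between panels. Eif4a3l1 is higher at the positive end of all 3 lines, 12.23 against 6.06 in replicate 2, the shared probesets are clearly higher along the line of replicate 2, and the 2 groups of Eif4a2 follow the replicate number.

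The sequence around the start of Eif4a3l1 differs in base composition from that of its parent, and both windows are shown because the copy and the parent gave such unequal differences. RefSeq windows of 250 bases before to 50 after the start were at hand for 4 of the 5 genes (build GRCm38.p6). Capitals mark matches on either strand to TATAA, the core of the TATA box, to GGGCGG, the GC box bound by Sp1, and to CCAAT, the box named for these letters. The window of Eif4a3l1 is chr6:136327289-136327588 on the plus strand, and that of Eif4a3 is chr11:119299994-119300293 on the minus strand.
Eif4a3l1: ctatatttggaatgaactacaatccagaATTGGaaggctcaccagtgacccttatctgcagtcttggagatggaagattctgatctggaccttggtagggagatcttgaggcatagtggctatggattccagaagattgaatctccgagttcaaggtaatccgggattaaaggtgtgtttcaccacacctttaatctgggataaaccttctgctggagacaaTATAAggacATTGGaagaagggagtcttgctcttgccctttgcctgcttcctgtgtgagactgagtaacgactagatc
Eif4a3: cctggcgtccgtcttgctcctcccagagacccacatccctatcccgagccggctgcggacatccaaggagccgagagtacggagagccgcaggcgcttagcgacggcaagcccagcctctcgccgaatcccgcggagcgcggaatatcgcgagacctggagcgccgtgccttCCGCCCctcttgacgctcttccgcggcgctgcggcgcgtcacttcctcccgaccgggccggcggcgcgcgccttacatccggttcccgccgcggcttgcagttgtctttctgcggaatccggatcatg

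The Eif4a3l1 window holds 1 TATAA, whose first base lies at -28 from the start, and 2 CCAAT on the opposite strand, at -222 and -19. It holds 0 GGGCGG. The Eif4a3 window holds 1 GGGCGG, on the opposite strand at -78, and no match to the other motifs. Among all 32817 windows of the same length, TATAA occurs in 24.9%, GGGCGG in 35.6% and CCAAT in 37.4%, at any position and on either strand. These shares do not gauge a match at a given position. No 2 of these matches overlap in the member windows. GC content is 45.0% for Eif4a3l1, with 3 CpG, and 68.7% for Eif4a3, with 42 CpG, against medians of 52.7% and 7 CpG over all windows. The windows of Eif4a1 (60.7% GC, 23 CpG) and Eif4a2 (67.7% GC, 36 CpG) were closer to that of Eif4a3 in composition. The Eif4a1 window has 1 GC box and 3 CCAAT boxes, and the Eif4a2 window has 4 GC boxes. A match to these letters describes the sequence and does not show that a factor binds there. Any part of the sequence in the unequal differences of copy and parent was not tested.

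The 2 probesets that list both Eif4a3l1 and Eif4a3 were higher in 1 positive array. Probeset 10539177 stood at 12.27, 12.00 and 12.16 in negative arrays 1, 2 and 3, and at 12.27, 13.25 and 12.13 in positive arrays 1, 2 and 3. Probeset 10541067 stood at 11.81, 11.48 and 11.71 in the negative and at 11.82, 12.90 and 11.70 in the positive arrays. Positive array 3 lay within the range of the negative arrays in both, as did array 1 for 10539177, while array 1 was 0.0018 above that range for 10541067. Positive array 2 lay 0.98 and 1.09 above the next highest positive array.

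The pairs show the same split. The log2 differences of 10539177 in pairs 1, 2 and 3 were -0.0019, 1.25 and -0.036. Those of 10541067 were 0.0018, 1.42 and -0.0074. The group differences were 0.40 (SE 0.30) and 0.47 (SE 0.33), and 0.054 and 0.091 without positive array 2. Over replicates 1 and 3 alone they were -0.019 and -0.0028, against 1.61 for the probeset of Eif4a3l1 alone. Which transcripts the probes of these probesets bind is not given in the sources used here. Since the annotation names the copy and the parent for the same probesets, the readings of both shared probesets and of Eif4a3 are uncertain as values of a single gene.

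The shared probesets followed each other closely. Over the 6 arrays the level of 10539177 exceeded that of 10541067 by 0.35 to 0.52 on the log2 scale, and they correlated with r = 0.999 (n = 6 arrays), and with r = 0.979 over 5 arrays without positive array 2. With Eif4a3l1 alone they correlated at 0.943 and 0.946 over 6 arrays, and at 0.468 and 0.513 over 5. These are descriptions over arrays that share a normalization. They show that the likeness of the shared probesets to Eif4a3l1 rested largely on positive array 2, and that the likeness between them did not.

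Eif4a3, the parent gene and core of the exon junction complex, was 1.11-fold higher in positive cells by its own probeset (10393642). Its log2 level was 10.85, 10.80 and 10.90 in negative arrays 1, 2 and 3, and 10.94, 11.06 and 11.00 in positive arrays 1, 2 and 3. The groups did not overlap, with a gap of 0.040. The log2 difference was 0.15 (SE 0.098), from 10.85 ± 0.047 (SD, n = 3) to 11.00 ± 0.060 (SD, n = 3). By pair it was 0.087, 0.25 and 0.11, so pair 2 was again the largest, and without positive array 2 it was 0.12.

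**Figure D2:**
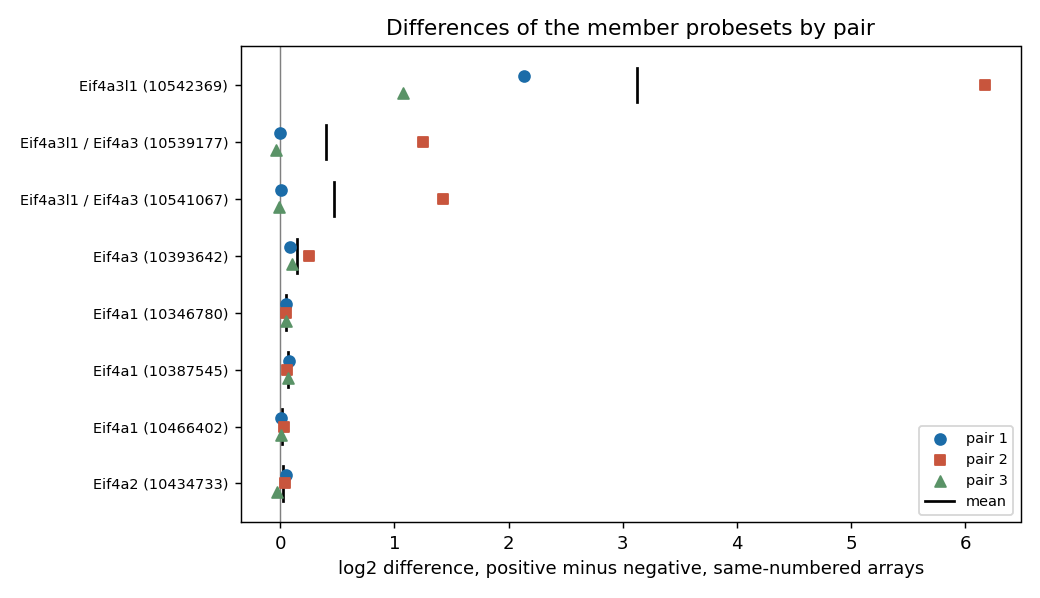
Log2 difference of positive minus negative for each same-numbered pair of arrays (points) and its mean (black bar) for the 8 member probesets. The Eif4a3l1 points lie at 2.14, 6.17 and 1.07, those of the shared probesets at about 0 except pair 2, and those of Eif4a1 and Eif4a2 between -0.027 and 0.077.

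Eif4a1, the main eIF4A of growing cells, was almost level between the groups on its 3 probesets. Probeset 10387545 stood between 13.19 and 13.22 in negative and between 13.25 and 13.28 in positive arrays, a log2 difference of 0.065 (SE 0.092). Probeset 10346780 stood between 13.29 and 13.32 in negative and between 13.34 and 13.37 in positive arrays, a difference of 0.049 (SE 0.092). In these 2 probesets the groups did not overlap, with gaps of 0.034 and 0.017. Probeset 10466402 overlapped, between 13.66 and 13.70 in both groups, and differed by 0.013 (SE 0.092). The highest value of any probeset lay between 14.25 and 14.49 per array, so all 3 read near the upper end of the scale, where differences can be compressed. RefSeq also lists a pseudogene named Eif4a-ps4, and whether the probes of Eif4a1 bind transcripts of such copies was not tested.

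Eif4a2, the paralogue that can take the place of eIF4A1 in eIF4F, varied more by replicate number than by reporter. Its log2 level (probeset 10434733) was 11.45, 12.25 and 11.71 in negative arrays 1, 2 and 3, and 11.50, 12.29 and 11.68 in positive arrays 1, 2 and 3. Array 2 was highest and array 1 lowest in both groups, a spread of 1.74-fold among the negative and 1.73-fold among the positive arrays. The pairs differed by 0.052, 0.040 and -0.027, and the groups by 0.022 (SE 0.28, and 0.084 in a fit with a replicate block). The sign of the group difference turned with a second quantile normalization, with array weights and with some single arrays left out. With 1 array left out it ran from -0.21 (positive array 2) to 0.24 (negative array 2). Without both replicate 2 arrays it was 0.012.

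The genes that work with these helicases were taken as 4 lists, and 75 of them had a probeset of their own. None passed the test (limma, 0 of 75 with an adjusted p below 0.05), and 0 did in a fit with a replicate block. Of all 35556 probesets 0 passed in either fit, so these counts, here and by list, do not show that the partner genes were unchanged. An unadjusted p below 0.05 was seen for 1 of them (1.33%), against 5.47% of all probesets. In the blocked fit it was seen for 2 (2.67%), against 10.1% of all. Unlike the 75, all probesets include those without a symbol and several of the same gene. With 1 probeset for each of 19938 genes, and all members kept, 878 had an unadjusted limma p below 0.05. The log2 difference was within 0.25 of 0 in 72 of the 75. At least 2-fold higher was 1 gene, Cwc22 (1.33%), beside 1.14% of all probesets. With 1 probeset for each of the 19938 genes, and all members kept, 102 were at least 2-fold higher. The median difference over all probesets was -0.026, and -0.043 with 1 probeset per gene.

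Among eIF4F and its regulators, 8 of 15 measured genes were higher, 7 lower and 0 past the test, with a median difference of 0.0044 whose sign turned under both other scalings, with array weights and with some single arrays left out. Eif4e, which binds the cap, differed by 0.011 (SE 0.10) on the brightest of its 3 probesets and by 0.20 (SE 0.099) on their mean, so its value depends on the probeset. Eif4g2, a relative of the eIF4G scaffold that lacks the eIF4E-binding part, differed by 0.12 (SE 0.10) without overlap between the groups, and by 0.080 without positive array 2. Eif4b and Eif4h, cofactors that stimulate eIF4A, differed by 0.0044 (SE 0.11) and -0.024 (SE 0.14). Pdcd4, an inhibitor that binds eIF4A, differed by -0.14 (SE 0.12), and Eif4ebp2, which holds eIF4E away from eIF4G, by -0.13 (SE 0.14). Pdcd4 differed by -0.055 without negative array 2 and by -0.22 without negative array 1. Eif4ebp2 differed by -0.022 without positive array 2, by -0.065 without negative array 2 and by 0.040 without both. The signs of Eif4e and Eif4b turned under another scaling and with single arrays left out, and that of Eif4h with single arrays left out. Eif4e3, a further cap-binding protein, had the largest difference of the list, -0.38 (SE 0.34), and its pairs differed by -0.22, -0.51 and -0.39 (limma adjusted p = 0.905, and 0.489 in the blocked fit). That difference was -0.62 when positive array 2 was left out and -0.061 when negative array 2 was. The scaffold gene Eif4g1 has no listed probeset and is not analysed here.

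Of the exon junction complex and its associated factors, 10 of 16 measured genes were higher, 6 lower and 0 past the test, with a median difference of 0.059. Rbm8a, the Y14 subunit, differed by 0.046 (SE 0.11), and Casc3, the subunit also called MLN51, by 0.082 (SE 0.15), and both signs turned without negative array 3. Alyref, an mRNA export adaptor, differed by -0.18 (SE 0.13), by -0.087 without positive array 2 and by -0.28 without positive array 3. Its relative Alyref2 differed by 0.16 (SE 0.30). Alyref2 stood at 7.78 in positive array 2 and between 6.60 and 7.05 in the other arrays, and its difference was -0.18 without positive array 2. Magoh and Magohb, the partners of Y14, have no listed probeset and are not analysed here.

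Cwc22, the splicing factor that binds eIF4A3 and brings it to the spliceosome, had the largest difference of the partner genes. Its log2 level was 10.28, 10.20 and 10.28 in negative arrays 1, 2 and 3, and 11.01, 12.78 and 10.55 in positive arrays 1, 2 and 3. Each positive array lay above each negative array, in the order 2, 1, 3 that Eif4a3l1 also had. The mean was 2.29-fold higher in positive cells (log2 difference 1.20, SE 0.55), which missed the threshold (limma adjusted p = 0.875, and 0.499 in the blocked fit). The pairs were 1.66-fold, 6.02-fold and 1.21-fold higher, and the log2 difference was 0.53 without positive array 2.

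Cwc22 has 8 probesets, of which 7 hold the same values. The other one (10484249) stood at 9.34, 9.12 and 9.18 in the negative and at 9.66, 11.16 and 9.12 in the positive arrays. There positive array 3 lay within the negative range, and the difference of 0.76 (SE 0.49) was 0.17 without positive array 2 (limma adjusted p = 0.879). The value of Cwc22 therefore depends on the probeset, and copies that share its probes cannot be told apart here.

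In nonsense-mediated decay, which reads the exon junction complex to find mRNAs with a premature stop, 6 of 12 measured genes were higher, 6 lower and 0 past the test, with a median difference of 0.0039 whose sign turned under both other scalings and when negative array 1 was left out. Smg6, the endonuclease of the pathway, differed by 0.31 (SE 0.12), with 10.09, 10.12 and 10.03 in negative and 10.26, 10.56 and 10.36 in positive arrays 1, 2 and 3. The groups did not overlap, and its limma adjusted p was 0.875. Of the 12 genes, 3 were higher without overlap, Upf2 among them, against 5.46% of all probesets, and this share was not tested. Upf2, the adaptor between UPF1 and the junction complex, differed by 0.20 (SE 0.10), and Upf1, the RNA helicase of the pathway, by -0.027 (SE 0.11). The sign of Upf1 turned with single arrays left out. Dcp2, the decapping enzyme, differed by -0.19 (SE 0.17), by -0.042 without positive array 2 and by -0.31 without positive array 3.

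Of the other DEAD-box helicases, 19 of 32 measured genes were higher, 13 lower and 0 past the test, with a median difference of 0.010 that changed sign with a second quantile normalization and with single arrays left out. The largest differences were those of Ddx19b, an mRNA export helicase, at 0.24 (SE 0.11), Ddx43, a helicase of the testis, at 0.22 (SE 0.32), and Ddx46, a splicing helicase, at -0.20 (SE 0.19). The groups of Ddx19b did not overlap. In this list 2 genes were higher and 3 lower in positive cells without overlap, against 5.46% of all probesets higher without overlap. Ddx46 stood at 10.87 in positive array 2 and between 11.39 and 11.53 in the other 5 arrays, and without positive array 2 its difference was 0.0019. Ddx43 was lowest in replicate 2 of both groups, at 7.25 in the negative and 7.59 in the positive array, and its difference was -0.086 without negative array 2. Its pairs differed by 0.081, 0.33 and 0.23, and its SE was 0.096 in the blocked fit.

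**Figure D3:**
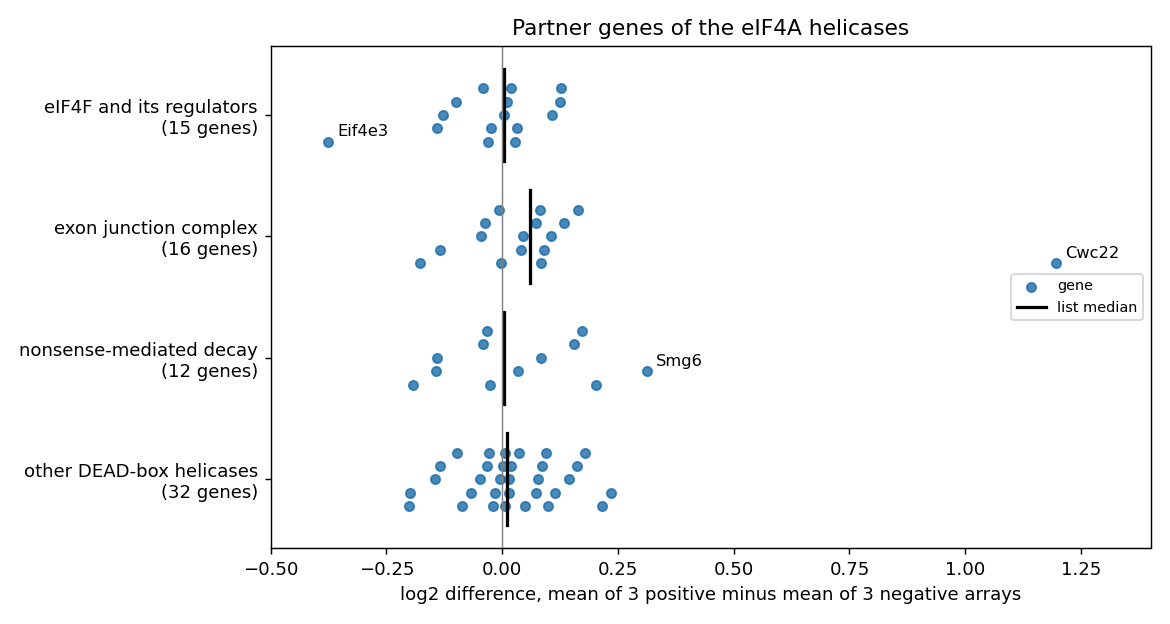
Log2 difference, mean of 3 positive minus mean of 3 negative arrays, of each measured gene of the 4 partner lists (points), with the list median as a black bar. Cwc22 at 1.20, Eif4e3 at -0.38 and Smg6 at 0.31 are named, and the other 72 genes lie within 0.25 of 0.

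Genes with profiles like the Eif4a3l readings were ranked by Pearson correlation over the 6 arrays, among 2269 genes with a probeset of their own and a range of at least 1 on the log2 scale. For the shared probeset 10539177, which has the highest mean of the 3, the 5 most alike genes were Hdc (histidine decarboxylase), Kifc3 (a kinesin), Fgf7 (a growth factor), Colgalt2 (a collagen galactosyltransferase) and Obox6 (an oocyte homeobox gene), at r from 0.994 to 0.997. All 5 were highest in positive array 2. Over the other 5 arrays their ranges were 0.41 to 0.79, so they met the minimum range of 1 through positive array 2 alone, and their likeness to a probeset high in that array was in large part fixed by this filter. Without that array their correlations were 0.878 to 0.977. Their differences in pair 2 were 1.96, 1.74, 3.50, 3.10 and 3.64, and in pairs 1 and 3 they lay between -0.079 and 0.31.

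For the probeset of Eif4a3l1 alone, a ranking added after its values were seen, the 5 were Gm11545, Abcb5 (an ABC transporter), Arg2 (the mitochondrial arginase), Drd3 (a dopamine receptor) and Adh7 (an alcohol dehydrogenase), at r from 0.996 to 0.998. All 5 were higher in each positive array than in any negative array, in the order 2, 1, 3. They were picked for likeness to Eif4a3l1, itself chosen by this contrast, and met the minimum range through the positive arrays. Their separation and order were therefore in large part fixed by the selection. Arg2 came closest in size, with pair differences of 2.30, 5.98 and 1.38 beside 2.14, 6.17 and 1.07 for Eif4a3l1. Over the 5 arrays without positive array 2 their correlations with Eif4a3l1 were 0.984 to 0.995. Correlations over 6 arrays are easily high, and 23 genes exceeded 0.99 with Eif4a3l1 and 14 with the shared probeset. Over all 35556 probesets, 1.38% read at least 1 higher on the log2 scale in positive array 2 than in any of the other 5 arrays.

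**Figure D4:**
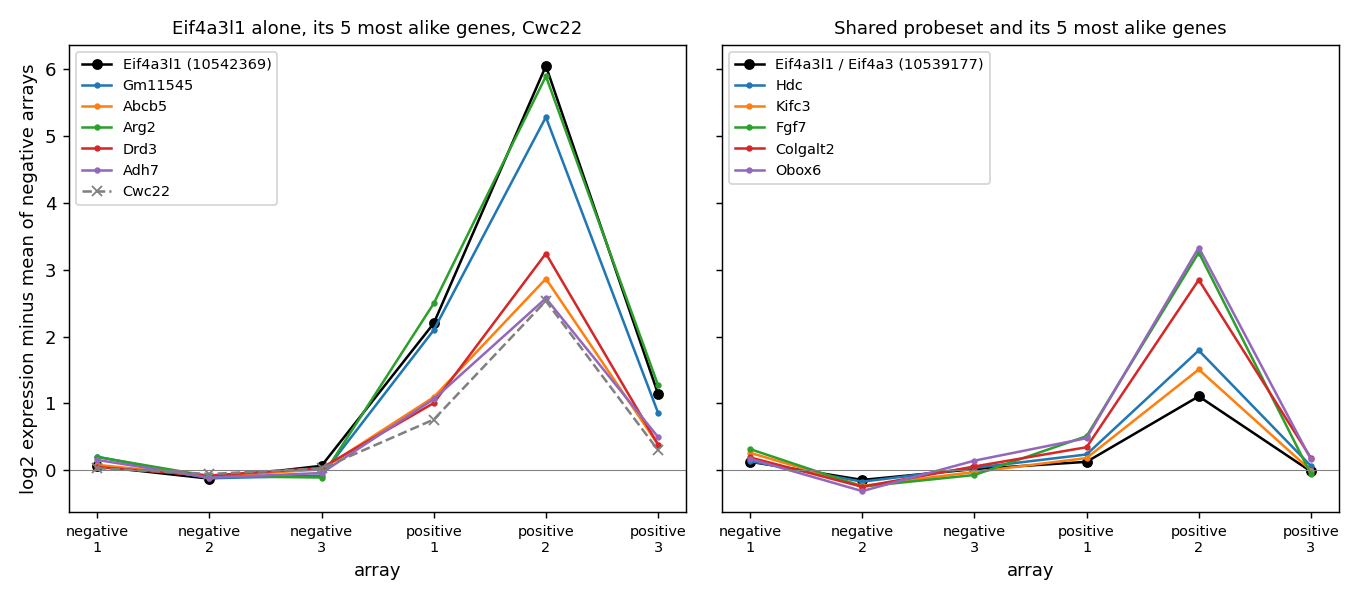
Log2 expression minus the mean of the negative arrays, by array, for Eif4a3l1 alone with its 5 most alike genes and Cwc22 (left) and for the shared probeset 10539177 with its 5 most alike genes (right). On the left all lines leave 0 in each positive array, and on the right they do so mainly in positive array 2. The 5 alike genes of each panel were picked for this likeness.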

How the data were processed

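Expression was measured in 6 samples, 3 per group, from 100 ng of total RNA each. The deposited values are log2 expression made by the authors with RMA in Affymetrix Expression Console, per the submitters' processing notes. RMA corrects background, normalizes quantiles and summarises probes, and it can understate differences of dim probesets. Its version is not given in the sources used here, nor is the genome build. Groups and numbers came from the titles. The platform annotation gave 21789 probesets 1 symbol, 1621 several and 12146 none. The 2 groups were compared over all 35556 probesets by the moderated test of limma (3.58.1, in R 4.3.3), two-sided, with Benjamini-Hochberg adjustment at 0.05. The fit was tested on simulated data with the same SD for every probeset and both groups. That setting is unlike Eif4a3l1, whose SD was 0.11 in negative and 2.58 in positive arrays, so it does not show how the fit treats such probesets. SE is that of the fit.

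No label says whether replicates were separate cultures. The p-values therefore reflect the variation among these samples alone, and that may be technical. Deviations from the group means correlated between same-numbered arrays at 0.41, 0.39 and 0.18 for numbers 1, 2 and 3. Between unlike numbers they correlated at -0.38 to 0.12, the highest for negative array 1 with positive array 3. Deviations from a mean of 3 arrays cancel within the group, so positive values for like numbers force lower ones for unlike numbers. The values for unlike numbers are therefore no separate ground for the pairs. The numbers were taken as pairs, with the weakest ground for number 3. This pairing comes from the data, not from the labels.

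The members and lists were chosen with earlier results of these data known. A list gene with several probesets was read from the brightest on average. Named were all members, the 3 largest differences of each partner list and genes past the test, a set of direct partners, and the 5 most alike genes. The ranking for Eif4a3l1 alone, and the separate Cwc22 probeset, were added after the data were seen. Alternatives were a replicate block, leaving out arrays, median centring, a second quantile normalization, array weights, leaving out the dimmest 30% of probesets, 1 probeset per gene, and the mean of a gene's probesets.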

Additional observations from a re-analysis of the deposited data

How the results depend on the processing

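The 8 member differences kept their direction with median centring. That of Eif4a2 turned to -0.018 with a second quantile normalization and to -0.056 with array weights. Taking 1 probeset per gene or leaving out the dimmest 30% removed other probesets only, so neither could change these differences. With the replicate block, 0 probesets passed the test (smallest limma adjusted p 0.489), as in every other setting run, and the block changed no call for a partner gene. With 1 array or both replicate 2 arrays left out, the difference of Eif4a3l1 alone lay between 1.61 and 4.12, those of the shared probesets between -0.019 and 0.62 and between -0.0028 and 0.69, and that of Eif4a3 between 0.096 and 0.18. Probeset 10387545 of Eif4a1 differed by 0.042 with a second quantile normalization.

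The 405 probesets at least 2-fold higher became 102 with 1 probeset per gene, and 431 to 550 with 1 array or both replicate 2 arrays left out. The 6 at least 2-fold lower became 3 with 1 probeset per gene, 132 with array weights, 29 without both replicate 2 arrays, and 17 (negative array 3 left out) to 105 (negative array 2 left out). The median of the other DEAD-box helicases was -0.030 with a second quantile normalization and -0.024 to 0.059 with arrays left out.

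Array weights gave 0.14 and 0.17 for the shared probesets. The eIF4F median was -0.028 with a second quantile normalization, -0.035 with array weights, -0.0050 with median centring and -0.023 to 0.027 with arrays left out. The nonsense-mediated decay median was -0.028, 0.022, -0.0054 and -0.046 to 0.079 in the same settings.

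Signs also turned for single partner genes, among them Ddx43, Ddx46 and Alyref2, which had some of the largest differences of their lists. With a second quantile normalization Eif4e differed by -0.021 and Eif4b by -0.028, and with median centring Eif4b differed by -0.0050. With array weights Alyref2 differed by -0.0077. With 1 array or both replicate 2 arrays left out the ranges were -0.021 to 0.074 for Eif4e, -0.051 to 0.088 for Eif4b, -0.13 to 0.040 for Eif4h, -0.22 to 0.040 for Eif4ebp2, -0.012 to 0.11 for Rbm8a, -0.026 to 0.22 for Casc3, -0.18 to 0.41 for Alyref2, -0.090 to 0.047 for Upf1, -0.086 to 0.46 for Ddx43 and -0.32 to 0.0019 for Ddx46. Leaving out 1 array compares groups with unlike replicate numbers, so the difference of a gene that varies by replicate number shifts with it. The part of this in these changes, and any other cause, was not tested. The number of arrays limits the precision.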
